A study of Mus musculus with 9 samples.

Results

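The small leucine-rich proteoglycans are secreted proteins built from leucine-rich repeats, and 8 of their genes (Ogn, Prelp, Dcn, Bgn, Lum, Fmod, Omd and Aspn) were followed here in mouse neural stem cells (NSCs) depleted of Med12. The 8 were taken from a list of gene symbols, and every array probe that the platform annotation assigned to 1 of these symbols was read on every array. That gave 15 probes, for 8 of the 19057 genes named on the array. The tested cells were mNS-5 NSCs, a clonal line derived from mouse embryonic stem cells, infected with a lentivirus that expressed a short hairpin RNA (shRNA) against Med12, a subunit of the transcriptional coactivator Mediator. The control cells were mNS-5 NSCs that received a lentivirus with a non-silencing (NS) shRNA. Both groups went through lentiviral infection and selection in puromycin at 600 ng/ml, grew with FGF-2 and EGF at 10 ng/ml each, and were harvested 5.5 days after infection. The study's methods name 1 Med12 shRNA, though the sample labels do not say which shRNA each array had, and all arrays share 1 cell clone. There were 6 Med12 knockdown arrays and 3 NS control arrays, which the sample labels place in 3 numbered sets of 2 knockdown arrays and 1 NS control array.

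Small leucine-rich proteoglycans sit in the extracellular matrix, where their curved repeat domains bind collagen fibrils and set fibril spacing and thickness. Most carry chondroitin, dermatan or keratan sulfate chains, and several also bind growth factors, TGF-beta in particular, or cell surface receptors. They are best known from skin, tendon, cartilage, bone and cornea. In the brain, decorin and other members are mostly found in the meninges and around vessels, and they accumulate in scars after injury.

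The values were deposited intensities from Illumina MouseWG-6 BeadChips, background subtracted and quantile normalized by the authors, on a linear scale on which dim probes can fall below 0. The spread of the values below 0 set a background limit at an intensity of 16.9, and 18654 to 18690 of the 45281 probes exceeded it on any 1 array. A gene was tested where a probe exceeded the limit on at least 3 arrays, and its brightest such probe stood for it. Intensities below 16 were set to 16 before log2, which understates the change of dim genes. Groups were compared over all 10757 genes tested with limma and Benjamini-Hochberg adjustment, and genes that reached both an adjusted p of 0.05 and a 2-fold change were called. The methods give 3 biological replicates for each condition, and the sources used here do not say how the 2 knockdown arrays of a set differ. All 9 arrays were used as separate samples, so n counts arrays and p-values reflect spread between arrays that could be partly technical, and tests with the 2 knockdown arrays of a set averaged are given beside the members.

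The knockdown itself was measured first. The Med12 probe read 122, 165, 121, 112, 176 and 126 on the knockdown arrays, given set by set, against 355, 356 and 267 on the NS control arrays. The groups did not overlap, and Med12 was lower by a log2 fold change of -1.26 ± 0.18 (SE, limma adjusted p = 0.00276). Its difference from the NS control array of the same set was -1.32, -1.61 and -0.84 on the log2 scale in sets 1, 2 and 3. Of the NSC markers, 7 of 10 on the array were tested and 0 passed an adjusted p of 0.05 in limma (2 at an unadjusted p below 0.05, both lower). These were Fabp7 (log2 fold change -0.50, limma adjusted p = 0.139) and Vim (log2 fold change -0.40, limma adjusted p = 0.158). Nes, Sox2 and Fabp7 were bright in both groups, whereas the brightest probes of Sox1, Pax6 and Msi1 exceeded the limit on no more than 2 arrays each. For Pax6 these were 2 NS control arrays, and for Sox1 and Msi1 1 knockdown array each.

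Of the 8 small leucine-rich proteoglycan genes, 3 could be tested, and 2 of these were called higher upon Med12 knockdown. Across the array 325 of 10757 genes (3.02%) were called higher and 84 (0.781%) lower. By the adjusted p alone, with no fold threshold, 706 genes (6.56%) were higher and 410 (3.81%) lower, and the 2 members were the same. None of the 3 was called lower in limma, and 0 were lower at an unadjusted p below 0.05. The 2 called members were osteoglycin (Ogn) and the proline- and arginine-rich end leucine-rich repeat protein (Prelp), and decorin (Dcn) was measured in knockdown cells without passing the test. Ogn and Dcn entered the test only through their knockdown arrays, with 6 and 5 of these and 1 and 0 NS control arrays above the limit. A lower result was therefore not open to these 2, and Prelp alone was above the limit on all 9 arrays. The other 5 (Bgn, Lum, Fmod, Omd and Aspn) were at background on nearly all arrays in both groups. These are levels in a population of cells, in which more cells of a type and more RNA per cell cannot be told apart.

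**Figure D1:**
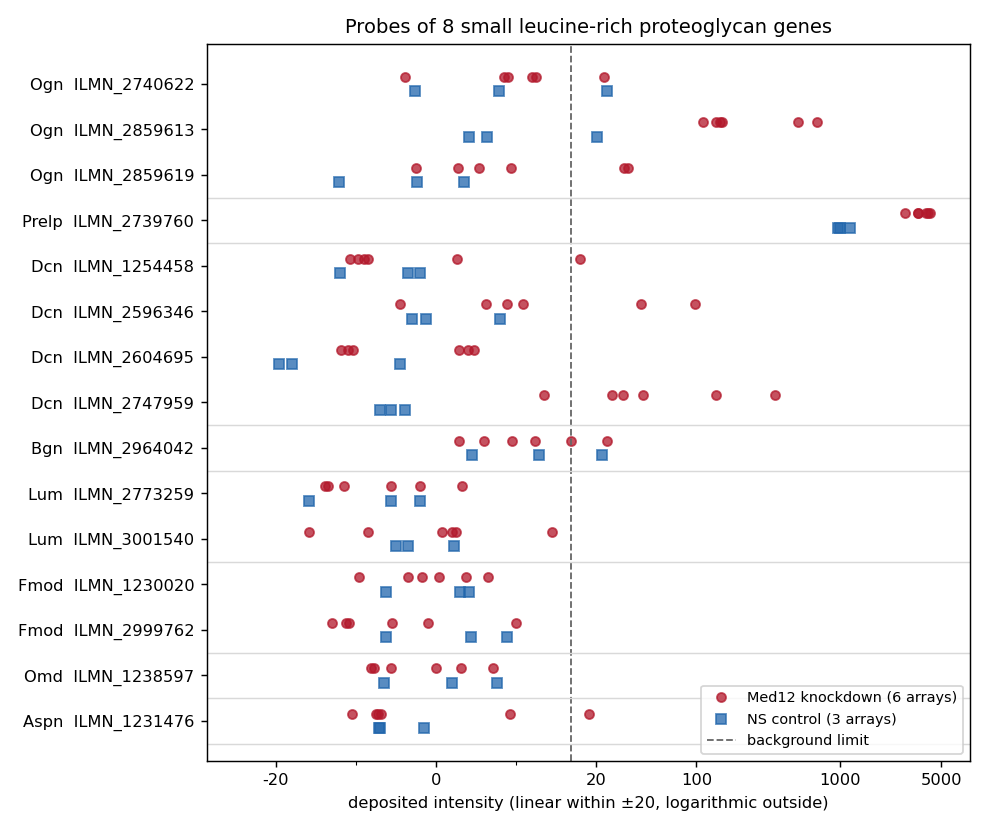
Deposited intensity (x axis, linear within 20 of 0 and logarithmic outside) of all 15 probes of the 8 genes (rows), with 6 Med12 knockdown arrays as circles above 3 NS control arrays as squares in each row; the dashed line is the background limit of 16.9. For Ogn ILMN_2859613 and for Prelp all knockdown arrays lie to the right of all NS control arrays, and for Lum, Fmod and Omd no array passes the line.

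The RefSeq start regions (250 bases before to 50 after the annotated start, build GRCm38.p6) of the 2 called members are shown with those of the next member in gene order, Omd for Ogn and Fmod for Prelp. These neighbours were at background in both groups, while Ogn and Prelp were called higher. The 4 sequences run 5′ to 3′ on each gene's own strand, and capitals mark every match to TATAAA on either strand. They are Ogn at chr13:49607765-49608064 (plus strand), Omd at chr13:49582212-49582511 (plus strand), Prelp at chr1:133921352-133921651 (minus strand) and Fmod at chr1:134037004-134037303 (plus strand).
Ogn: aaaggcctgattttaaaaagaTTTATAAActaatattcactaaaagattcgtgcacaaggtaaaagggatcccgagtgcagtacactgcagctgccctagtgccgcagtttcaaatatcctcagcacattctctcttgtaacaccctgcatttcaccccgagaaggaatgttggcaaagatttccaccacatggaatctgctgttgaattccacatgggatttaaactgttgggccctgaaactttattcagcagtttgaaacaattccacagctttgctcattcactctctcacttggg
Omd: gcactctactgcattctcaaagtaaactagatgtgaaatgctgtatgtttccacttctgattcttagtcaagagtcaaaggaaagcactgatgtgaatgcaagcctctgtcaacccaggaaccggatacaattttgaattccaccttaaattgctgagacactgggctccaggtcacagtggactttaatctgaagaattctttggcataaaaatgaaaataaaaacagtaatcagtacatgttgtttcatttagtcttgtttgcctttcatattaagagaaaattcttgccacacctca
Prelp: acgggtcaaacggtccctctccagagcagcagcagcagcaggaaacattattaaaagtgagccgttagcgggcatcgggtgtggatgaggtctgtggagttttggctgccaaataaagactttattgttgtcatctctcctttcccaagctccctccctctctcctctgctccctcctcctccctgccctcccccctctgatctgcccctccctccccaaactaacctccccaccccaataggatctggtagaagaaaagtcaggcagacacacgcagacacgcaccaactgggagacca
Fmod: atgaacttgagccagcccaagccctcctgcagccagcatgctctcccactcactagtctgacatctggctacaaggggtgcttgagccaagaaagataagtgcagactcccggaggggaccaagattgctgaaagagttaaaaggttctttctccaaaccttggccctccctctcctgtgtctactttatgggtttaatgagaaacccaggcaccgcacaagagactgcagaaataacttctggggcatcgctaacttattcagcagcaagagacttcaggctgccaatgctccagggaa
Counted from the annotated start, Ogn had TATAAA at position -227, overlapping a match on the other strand, and the other 3 had none. Aspn, which lies in the same row of genes as Ogn and was at background, had 1 match on each strand (at positions -207 and -178). TATAAA occurred in 13.6% of 32851 promoters of the same length, searched on both strands. Neither TGANTCA, a form of the AP-1 site (7.81% of promoters), nor GCGNGGGCG, a form of the EGR site (5.55%), was found on either strand in any of the 6 members with a sequence. GC content was 42.3% for Ogn, 37.7% for Omd, 55.3% for Prelp and 51.0% for Fmod, with 4, 1, 7 and 3 CpG dinucleotides, while the median of all promoters was 52.7% with 7 CpG.

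Ogn, also called mimecan, is a matrix protein first isolated from bone that takes part in collagen fibril assembly. Its brightest probe (ILMN_2859613) read 512, 688, 111, 137, 146 and 151 on the knockdown arrays, given set by set. On the NS control arrays of sets 1, 2 and 3 it read 6.4, 20.4 and 4.2. The groups did not overlap, and only 1 of the 3 NS control arrays was above the background limit. The intensity averaged 291 ± 246 in knockdown cells and 10.3 ± 8.79 in NS control cells (SD, n = 6 and n = 3 arrays). On the floored scale Ogn was higher by a log2 fold change of 3.68 ± 0.57 (SE), 12.8-fold, with a limma adjusted p of 0.00375. That placed it at rank 7 among the 10757 genes by log2 fold change. The exact permutation test over the 84 splits of the 9 arrays gave p = 0.0119 (two-sided), the smallest these splits allow. That test counts both knockdown arrays of a set as separate samples. With these averaged, 3 set means against 3 controls gave an exact permutation p of 0.1, the smallest that 20 splits allow, and a limma adjusted p of 0.0172. Because most NS control values lay under the floor, the size of the change depended on it, with log2 fold changes between 2.23 and 4.76 under other transformations.

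Both knockdown arrays of set 1 had the highest Ogn intensities, and both of set 2 the lowest. The difference from the NS control array of the same set averaged 5.21 in set 1, 2.60 in set 2 and 3.22 in set 3 on the floored log2 scale. The control array was above the limit in set 2 alone, where the difference was 6.04-fold, and with the control set to the limit it was at least 35.0-fold in set 1 and at least 8.79-fold in set 3. Each of the 6 knockdown arrays was thus above its own control. Without both knockdown arrays of set 1, a check added after the values were seen, Ogn remained called at 7.81-fold (log2 fold change 2.97, limma adjusted p = 2.04e-04). Both set 1 knockdown arrays were also the highest of the 6 for 18.4% of all genes tested, against 5.03% for set 2 and 10.2% for set 3.

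The other probes of Ogn did not carry the change. ILMN_2859619 read between -2.4 and 33.6 on the knockdown arrays and between -12.1 and 3.6 on the NS control arrays, with 2 knockdown arrays above the limit. ILMN_2740622 read between -3.8 and 22.8 on the knockdown arrays and between -2.6 and 24.1 on the NS control arrays. Neither exceeded the limit on enough arrays to be tested, so the call for Ogn rests on 1 of its 3 probes. In a fit of every probe separately, 397 of 16992 probes (2.34%) were called higher, among them the Ogn probe (limma adjusted p = 0.00478) and the Prelp probe (limma adjusted p = 3.74e-04).

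Prelp binds collagen and heparan sulfate and is thought to anchor basement membranes to the tissue beneath. Its single probe read 2802, 3437, 4084, 4165, 3906 and 3443 on the knockdown arrays, given set by set. The NS control arrays of sets 1, 2 and 3 read 1173, 957 and 992. All 9 arrays were far above background, and the lowest knockdown array was above the highest control. The intensity averaged 3640 ± 515 in knockdown cells and 1041 ± 116 in NS control cells (SD, n = 6 and n = 3 arrays). Prelp was higher by a log2 fold change of 1.80 ± 0.15 (SE), 3.48-fold, with a limma adjusted p of 2.41e-04, at rank 83 by log2 fold change. The exact permutation test again gave p = 0.0119 (two-sided), the smallest the 84 splits allow. With the knockdown arrays of a set averaged the exact test gave p = 0.1, the smallest that 20 splits allow, and the limma adjusted p was 0.00536. On the floored scale, every knockdown array above every NS control array was seen for 1097 of the 10757 genes (10.2%), Ogn and Prelp among them.

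The sets stood in a different order for Prelp than for Ogn. The difference from the NS control array of the same set averaged 1.40 in set 1, 2.11 in set 2 and 1.89 in set 3 on the log2 scale, or 2.65-fold, 4.31-fold and 3.70-fold. Set 1 had the lowest Prelp intensities among the knockdown arrays and the highest among the controls. Both set 1 knockdown arrays were the lowest of the 6 for 16.5% of all genes tested. Over the 6 knockdown arrays the log2 values of Prelp and Ogn had a Pearson r of -0.76, a description over arrays that come in 3 sets. Without both set 1 knockdown arrays the log2 fold change of Prelp was 1.91.

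Dcn, which binds collagen fibrils through its core protein, carries a chondroitin or dermatan sulfate chain and can sequester TGF-beta, was uneven. Its brightest probe (ILMN_2747959) read 138, 353, 31.1, 25.8, 13.5 and 42.6 on the knockdown arrays, set by set, against -3.8, -5.6 and -6.9 on the NS control arrays. On the deposited scale the groups did not overlap, with 5 of 6 knockdown arrays and no NS control array above the background limit. The log2 fold change was 1.77 ± 0.84 (SE) with a limma adjusted p of 0.205, and Dcn was not called. No control array exceeded background. With the control arrays set to the limit and the knockdown arrays at their measured values, the difference was 3.14-fold. This is no strict lower bound, since the knockdown array at 13.5 was itself under the limit. The exact permutation test on the floored values of the 9 arrays gave p = 0.131 (two-sided). With the knockdown arrays of a set averaged the exact test gave p = 0.1, the smallest that 20 splits allow, and the limma adjusted p was 0.196.

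The Dcn signal came largely from set 1. The difference from the NS control array of the same set averaged 3.78 in set 1, 0.82 in set 2 and 0.71 in set 3 on the floored log2 scale. With the control array of the set at the limit these were at least 13.02-fold in set 1 and at least 1.67-fold in set 2. For set 3 the same reckoning gave 1.42-fold, which is no strict bound, since its first knockdown array was itself under the limit. Without both set 1 knockdown arrays the log2 fold change was 0.77 (limma adjusted p = 0.153). Over the 6 knockdown arrays Dcn and Ogn had a Pearson r of 0.94 and Dcn and Prelp an r of -0.68, again as descriptions over 3 sets. Of the other 3 Dcn probes, ILMN_2596346 was above the limit on the same set 1 knockdown arrays (41.1 and 97.9) and on no other array. ILMN_1254458 exceeded it on 1 knockdown array (18.1), and ILMN_2604695 on none. The 3 probes were not tested.

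**Figure D2:**
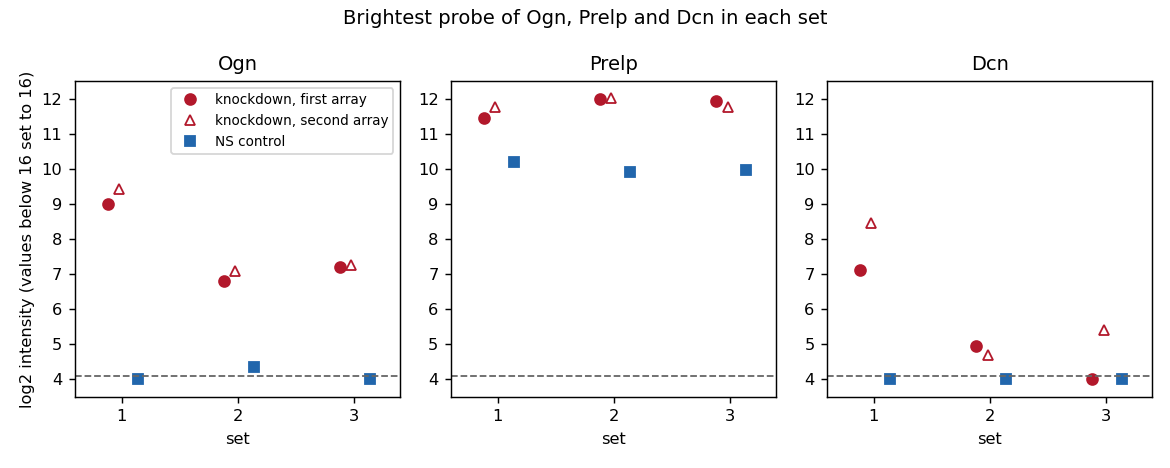
Log2 intensity (y axis, values below 16 set to 16) of the brightest probe of Ogn, Prelp and Dcn in sets 1, 2 and 3 (x axis), with the first (filled circle) and second (open triangle) knockdown array left of the NS control array (square); the dashed line is the background limit. Set 1 holds the highest knockdown values of Ogn and Dcn and the lowest of Prelp.

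The remaining members gave no testable signal. Biglycan (Bgn), the close relative of decorin with a pair of chondroitin or dermatan sulfate chains, read between 2.9 and 23.8 on the knockdown arrays and between 4.6 and 22.3 on the NS control arrays, with 1 array of each group above the limit. Asporin (Aspn), a relative of decorin with an aspartate-rich end, had 1 knockdown array above the limit (19.2) and no NS control array. The keratan sulfate proteoglycans lumican (Lum) and fibromodulin (Fmod), which shape collagen fibrils in cornea and tendon, were above it on no array by either of their probes. The single probe of osteomodulin (Omd), a keratan sulfate proteoglycan of bone, was likewise never above it. The 12 untested probes of the 8 genes ranged from -19.6 to 97.9. With no filter on dim probes the log2 fold changes were -0.05 for Bgn (limma adjusted p = 1) and 0.04 for Aspn (limma adjusted p = 0.919). A probe at background does not show that a transcript was absent, since the sensitivity of each probe is not known.

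Most of these genes lie beside one another in the genome, and the gene order of GRCm38.p6 was used to read their neighbours. On chromosome 13 the order is Cenpp, Ecm2, Aspn, Omd, Ogn, Nol8 and Iars. Ogn was the only gene of that row that was called, but Nol8 had no named probe and Aspn and Omd could not be tested. Cenpp, a centromere protein gene, had a log2 fold change of 0.01 (limma adjusted p = 0.985), and Iars, an isoleucyl-tRNA synthetase gene, of -0.23 (limma adjusted p = 0.398). Ecm2, itself a leucine-rich matrix gene, read between 10.9 and 30.1 on the knockdown arrays and between -10.3 and 2.1 on the NS control arrays, with a log2 fold change of 0.24 (limma adjusted p = 0.460).

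On chromosome 1 the order is Atp2b4, Optc, Prelp, Fmod, Btg2 and Chit1. Optc (opticin, another leucine-rich proteoglycan), Fmod, Btg2 and Chit1 could not be tested, and Atp2b4, a calcium pump gene, had a log2 fold change of -0.26 (limma adjusted p = 0.724). On chromosome 10 the order is Btg1, Gm46240, Dcn, Lum, Kera and Epyc, and the keratan and dermatan sulfate proteoglycan genes Kera and Epyc were not testable either. Btg1, an antiproliferative gene, read 7106, 9233, 4866, 4290, 4301 and 5364 on the knockdown arrays, set by set, against 5028, 3443 and 3928 on the NS control arrays (log2 fold change 0.46, limma adjusted p = 0.277). Its highest knockdown arrays were the set 1 arrays on which Dcn was also highest. Around Bgn on the X chromosome, Trex2 had a log2 fold change of 0.00 (limma adjusted p = 0.999), and Haus7, Atp2b3 and Dusp9 were not testable.

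**Figure D3:**
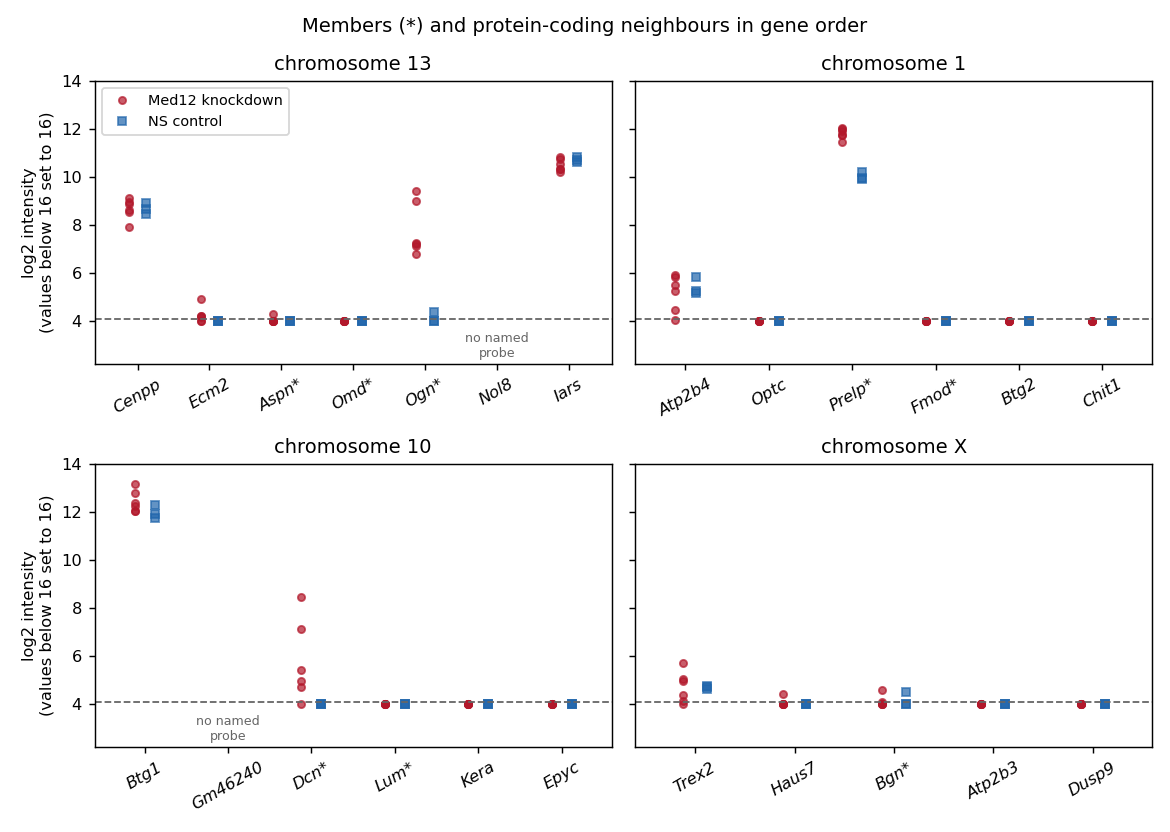
Log2 intensity (y axis, values below 16 set to 16) of the members (asterisks) and their protein-coding neighbours in gene order (x axis) on chromosomes 13, 1, 10 and X, with Med12 knockdown arrays (circles) left of NS control arrays (squares) and the background limit dashed; 2 genes had no named probe. In the rows of chromosomes 13 and 1 only Ogn and Prelp have knockdown arrays that are clear of the control arrays at levels well above the limit.

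The genes whose log2 values followed Ogn most closely over the 9 arrays were Sulf2, which trims sulfate from heparan sulfate outside the cell (Pearson r = 0.996), Hrc, a calcium-binding protein gene (0.990), the growth factor gene Fgf1 (0.990) and Hsd17b11 (0.989). These were picked from all genes tested for their likeness, and the group difference is part of it. By deviations from the group means, which leave the group difference out, the closest to Ogn were Caln1 (0.985), the lipid carrier gene Apoe (0.984), the GABA synthesis gene Gad1 (0.982) and Sulf2 (0.981). Gad1 read 509, 562, 145, 172, 192 and 196 on the knockdown arrays, set by set, against 101, 127 and 135 on the NS control arrays, with set 1 highest as for Ogn. For Prelp the closest by log2 values were Myorg (0.987), Mocs1 (0.985), Ssx2ip (0.980) and Nol4l (0.974), and by deviations Marchf7 (0.920), Iqsec2 (0.895), Gzf1 (0.891) and Bdh1 (0.889).

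The sulfated chains of these proteins are built on a common linkage to the core protein. In the list of linkage, chondroitin and dermatan sulfate genes, 20 of 23 were tested, of which 2 fell and 0 rose (2 higher and 3 lower at an unadjusted p below 0.05 in limma), with a median log2 fold change of -0.03 against -0.0022 over all genes tested. Chst3, a chondroitin 6-O-sulfotransferase gene, read between 17.5 and 42.7 in knockdown cells, against 117 to 196 in NS control cells, a log2 fold change of -2.25 ± 0.28 (SE, limma adjusted p = 0.00143). Chst7, a brighter sulfotransferase gene of the list, did not fall. It read between 5714 and 7832 in knockdown cells and between 5064 and 5552 in NS control cells (log2 fold change 0.31, limma adjusted p = 0.153). Pxylp1, the phosphatase that acts on the linkage xylose, read between 95.5 and 139 in knockdown cells and between 332 and 436 in NS control cells (log2 fold change -1.70 ± 0.15 SE, limma adjusted p = 3.04e-04). Of 9 keratan sulfate genes 5 were tested, and 1 rose and 0 fell (2 higher and 0 lower at an unadjusted p below 0.05 in limma), with a median of 0.41. The one that rose was Chst2, which sulfates N-acetylglucosamine, between 1747 and 2809 in knockdown cells and between 1134 and 1331 in NS control cells (log2 fold change 0.85 ± 0.15 SE, limma adjusted p = 0.00869).

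Among the fibrillar collagens and their fibril partners, 11 of 18 were tested, 2 rose and 0 fell (2 higher and 2 lower at an unadjusted p below 0.05 in limma), with a median of -0.01. Col5a1, a chain of the collagen that nucleates fibrils, read between 271 and 495 in knockdown cells and between 113 and 208 in NS control cells (log2 fold change 1.22, limma adjusted p = 0.00926). Eln, the elastin gene, read between 71.4 and 93.8 in knockdown cells and between 16.4 and 55.9 in NS control cells (log2 fold change 1.45, limma adjusted p = 0.0173). The brightest probe of Col1a1, the main collagen chain to which decorin binds in skin and tendon, exceeded the limit on no array. Of the 20 listed collagen maturation enzymes 9 were tested and 0 passed in either direction (1 higher and 0 lower at an unadjusted p below 0.05 in limma), with a median of -0.04.

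TGF-beta ligands, latency proteins and receptors gave 11 tested genes of 18, with 2 higher and 1 lower (4 higher and 1 lower at an unadjusted p below 0.05 in limma) and a median of 0.32. Tgfbr3, or betaglycan, a coreceptor that is itself a proteoglycan, read 248, 268, 121, 110, 120 and 87.9 on the knockdown arrays, set by set, against 38.9, 34.6 and 21.4 on the NS control arrays (log2 fold change 2.24, limma adjusted p = 0.00558). Set 1 was highest in both groups. Tgfbr1, the signalling receptor, read between 2426 and 3925 in knockdown cells and between 1518 and 1822 in NS control cells (log2 fold change 0.85, limma adjusted p = 0.0190). Ltbp4, a latent TGF-beta binding protein gene, was between 50.8 and 105 in knockdown cells and between 131 and 168 in NS control cells (log2 fold change -1.06, limma adjusted p = 0.0221).

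Of 16 cell surface receptors reported for these proteoglycans 11 were tested, 1 rose and 1 fell (1 higher and 2 lower at an unadjusted p below 0.05 in limma), with a median of 0.13. Tlr4, an innate immune receptor to which biglycan binds, read between 83.2 and 123 in knockdown cells and between 27.8 and 51.8 in NS control cells (log2 fold change 1.35, limma adjusted p = 0.00289). P2rx4, a purinergic channel gene, read between 28.4 and 44.2 in knockdown cells and between 51.9 and 64.7 in NS control cells (log2 fold change -0.74, limma adjusted p = 0.0247). Of 12 matrix proteases reported to cut them 7 were tested, 1 rose and 0 fell (2 higher and 0 lower at an unadjusted p below 0.05 in limma), with a median of 0.35. It was Adamts4, an aggrecanase, between 1090 and 1352 in knockdown cells and between 489 and 683 in NS control cells (log2 fold change 1.06, limma adjusted p = 0.00178). Of 10 other leucine-rich proteoglycans only Ecm2 could be tested, as given above.

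**Figure D4:**
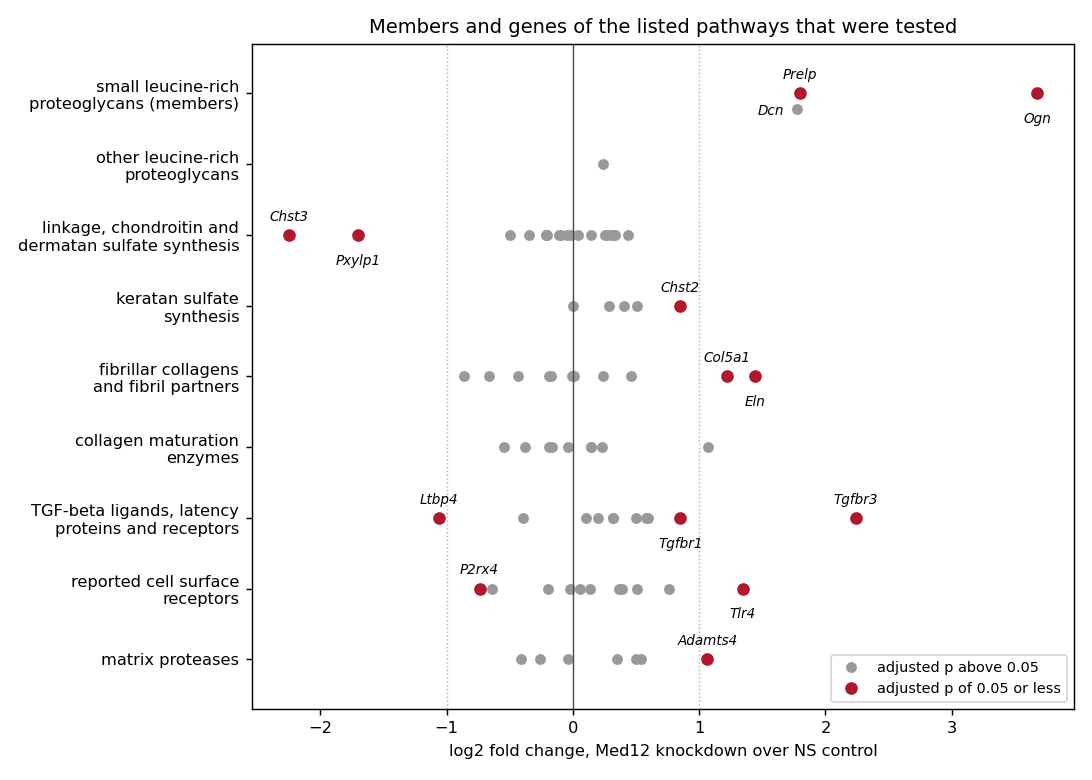
Log2 fold change of Med12 knockdown over NS control (x axis) for each tested member and each tested gene of the 8 pathway lists (rows, 1 point a gene), with genes at an adjusted p of 0.05 or less in red and named, and dotted lines at a 2-fold change. The members Ogn (3.68) and Prelp (1.80) lie to the right, Chst3 (-2.25) and Pxylp1 (-1.70) to the left.

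Markers of other cell types were read on the same arrays, connective tissue cells first, since these proteoglycans are typical of them. Of 13 fibroblast and meningeal markers 8 were tested, 1 of which rose and 0 fell (1 higher and 0 lower at an unadjusted p below 0.05 in limma). It was the transcription factor gene Foxc1, between 260 and 382 in knockdown cells and between 88.0 and 208 in NS control cells (log2 fold change 1.15, limma adjusted p = 0.0186). Their summed intensity was 593 to 743 on the knockdown arrays and 421 to 563 on the NS control arrays. The gap between the groups in this sum came from Foxc1. Twist1, the other bright marker, averaged 200 in knockdown cells and 201 in NS control cells. Foxc1 and Twist1 were above the limit on all 9 arrays, Pdgfra on 8, Prrx1 on 6, Foxc2 on 5, and Col1a2, Aldh1a2 and Crabp2 on 4 each. By their brightest probes, Col3a1 and Pdgfrb were above it on 1 array each, and Col1a1, Thy1 and Postn on none. Of 7 mural cell markers 2 were tested and 0 passed in limma (0 at an unadjusted p below 0.05). Their summed intensity was 1127 and 1402 on the set 1 knockdown arrays, between 259 and 332 on the other knockdown arrays and between 169 and 488 on the NS control arrays. Most of it was Acta2, smooth muscle actin, at 1062 and 1331 on the set 1 knockdown arrays. These were also the highest for Ogn and Dcn, as they were for 18.4% of all genes tested. Des, the other tested marker, read 26.6 and 28.4 on them. It read between 16.7 and 35.9 over all knockdown arrays and between 29.5 and 36.4 on the NS control arrays. By their brightest probes, Myh11 was above the limit on 2 arrays, Abcc9 on 1, and Tagln, Rgs5 and Kcnj8 on none. Of 10 bone and cartilage markers 3 were tested and 0 passed in limma (0 higher and 1 lower at an unadjusted p below 0.05), with a summed intensity of 91.2 to 145 on the knockdown arrays and 104 to 217 on the NS control arrays. All 6 astrocyte markers were tested, and 1 rose and 0 fell (3 higher and 0 lower at an unadjusted p below 0.05 in limma), with a summed intensity of 5670 to 6361 on the knockdown arrays and 6306 to 7150 on the NS control arrays. Most of that sum was Gja1, between 4933 and 5737 in knockdown cells and between 5831 and 6758 in NS control cells (log2 fold change -0.23, limma adjusted p = 0.214). The one that rose was the folate enzyme gene Aldh1l1, between 50 and 69.9 in knockdown cells and between 14.4 and 47.2 in NS control cells (log2 fold change 1.04, limma adjusted p = 0.0400). S100b read 416, 603, 261, 220, 242 and 315 on the knockdown arrays, set by set, against 163, 90.2 and 220 on the NS control arrays (limma adjusted p = 0.0727). Its set 1 knockdown arrays were the highest, as for Ogn, Dcn and 18.4% of all genes tested. Among the knockdown arrays, both of set 1 were also the highest for Gfap and Aqp4. They were the lowest for Gja1 (5118 and 4933), and neither for Aldh1l1 and Slc1a2. Of 7 neuron markers 2 (Dcx and Map2) were tested and 0 passed in limma (both higher at an unadjusted p below 0.05), with a summed intensity of 6361 to 8119 on the knockdown arrays and 5254 to 6215 on the NS control arrays, and the brightest probes of Tubb3, Rbfox3 and Stmn2 were above the limit on no array. Nearly all of that sum was Map2, between 6309 and 8053 in knockdown cells and between 5217 and 6172 in NS control cells. The part of other cell types in the levels of Ogn, Prelp and Dcn was not tested.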

How the data were processed

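RNA of 6 Med12 knockdown and 3 NS control samples of mNS-5 NSCs had been hybridised to Illumina MouseWG-6 BeadChips. The authors background subtracted and quantile normalized the scanner signals in GenomeStudio (version not given in the sources used here) and deposited intensity values on a linear scale, of which 33.4% were below 0. These deposited intensities were used. A table of signals without normalization was left out, since its 18 columns carry names that match no sample.

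Probe symbols came from the platform annotation, which names 34885 of 45281 probes with 1 symbol. Values below 0 were mirrored to estimate a background SD of 10.3, and the limit was set at a one-sided p of 0.05 (16.9), with a strict limit of 24.0 at 0.01. A probe was kept if it passed the limit on at least 3 arrays, lower values were floored at 16, and each gene was represented by its brightest probe. Markers, list genes and neighbours without a kept probe were read at their brightest probe alone. Where no array of a group passed the limit, that group was set to the limit and the other kept its measured values, to give a bound. The bound is strict only where every array of the other group passed the limit. The 2 groups were compared on the log2 scale in R 4.3.3 with limma 3.58.1 (lmFit, then eBayes). Tests were two-sided, the set number was not in the model, and p-values were Benjamini-Hochberg adjusted across all genes tested. In statements on gene lists, higher, lower, rose and fell refer to an adjusted p of 0.05 or less alone. The fit was tested on simulated data. Start region sequences were RefSeq's, matched by symbol for 6 of the 8 genes. Plots were made in Python 3.11.15 using matplotlib 3.10.9.

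The members and lists were chosen with earlier results of these data known. Genes were named by rule: every member with all probes, Med12, up to 4 genes past the adjusted p of each pathway list, the neighbours on both sides of each member's cluster, and for each called member the 4 genes most like it by each measure. Markers, Btg1 among the neighbours, Chst7 and genes given as absent were described beside these results. Alternatives covered the transformation, the filter, the probe, the set number as a block, the second knockdown arrays, array weights, a trend in the variance prior, a test without moderation and leaving out each array in turn.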

Additional observations from a re-analysis of the deposited data

Results flagged for a closer look

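Among the 16 groups of array values tested for a value far from the rest, 1 stood out: the second knockdown array of set 1 read 353 for the brightest Dcn probe, and the nearest knockdown array, the first of set 1, read 138. The other 4 knockdown arrays were between 13.5 and 42.6. About 1 in 20 groups gives such a value by chance. Without that array the log2 fold change of Dcn was 1.23, against 1.77 with it, and Dcn was not called either way.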

How the results depend on the processing

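Prelp kept its call in all 25 alternatives that gave a value, with log2 fold changes between 1.74 and 1.91 and adjusted p-values of at most 0.0132 (limma). Ogn kept its call in all 24 that gave a value, between 2.23 and 4.76, with adjusted p-values of at most 0.0332. The alternatives that averaged a gene's probes or tested each probe used only probes that passed the filter. Each of the 3 tested members had 1 such probe, so these alternatives could not change its log2 fold change. The dim probes of Ogn did not enter them. Dcn was called in 1 of 23, where values below 1 were set to 1 (log2 fold change 5.73, limma adjusted p = 0.00961), so that 3 members were called, and its log2 fold change ranged from 0.77 to 5.73 and its adjusted p from 0.00961 to 0.509. Where a probe had to exceed the limit on all 9 arrays, 1 member was called, because only Prelp could then be tested. Dcn had no value with the first knockdown array of each set alone. Across all genes, 168 were called higher and 45 lower with 50 added before log2, 199 and 49 with no filter on dim probes, and 166 and 44 with the first knockdown arrays alone.

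With the set number as a replicate block, 367 genes were called higher and 94 lower, and adjusted p-values were 0.00175 for Ogn, 7.42e-04 for Prelp and 0.0905 for Dcn (limma), which changed no call of a member. Deviations from the group means correlated between the NS control array and the knockdown arrays of its set at 0.305 and 0.251 in set 1, 0.0255 and 0.230 in set 2 and 0.0915 and 0.168 in set 3. All of these were positive, but not every pair was over 0.1, a cut-off chosen for this report. The set numbers were therefore not treated as pairing in the main fit, and whether they pair the arrays was not settled. Leaving out each array in turn changed no call of a member. The alternative without both set 1 knockdown arrays was chosen after seeing the data. A normalization from the signals without normalization was not run, as their columns could not be tied to samples. The number of arrays limits the precision, and for Ogn and Dcn the control level at or under background limits the size of the change.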
